A study of Mus musculus with 6 samples.

Results

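The ubiquitin-specific proteases (USPs) were examined at the level of their transcripts in bone marrow–derived macrophages (BMDMs). Members were every spot that was not a control and whose gene name on the array was Usp followed by a digit. This rule gave 52 genes out of 34787 gene names, measured by 79 of 55681 probes. It takes in *Usp6nl*, which encodes a GTPase-activating protein for RAB proteins and no deubiquitinase, and it leaves out relatives named otherwise, such as *Cyld*. *Usp17l5* was named Usp17lc in RefSeq, and 6 further probes that RefSeq assigns to *Usp17*-like genes carried other names on the array and were not counted as members.

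USPs are cysteine proteases that remove ubiquitin, or a ubiquitin-like protein such as ISG15, from other proteins. By doing so they can protect a substrate from the proteasome or end a signal that depends on a ubiquitin chain. In macrophages, ubiquitin chains relay the signals of Toll-like receptors to NF-κB and interferon genes, and USP7 is known to remove ubiquitin from the p65 subunit of NF-κB.

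All cells were wild-type BMDMs from female C57/B6 mice (C57BL6/J in the methods of the study), grown for 7 days in medium conditioned by L929 cells. The untreated group received neither agent. The LPS group received 100 ng/ml LPS, the bacterial ligand of TLR4, for 4 h. The LPS+USP7i group received 10 μM of the USP7 inhibitor HBX41,108 30 min before the same LPS stimulation. The labels give an age of 6 to 8 weeks and the methods of the study an older range, and the treatment protocol in the labels states the LPS dose per microliter where the other records state it per milliliter. No source used here says whether the cells without inhibitor received its solvent. With 2 arrays per group, described in the series as independent experiments, a single value compared between 2 groups cannot reach an exact two-sided permutation p below 0.333, and the calls below come from a model fitted across all probes.

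All 6 arrays lay on 1 slide, where untreated, LPS and LPS+USP7i cells occupied rows 1, 2 and 4, so slide row and treatment cannot be told apart. Replicates 1 and 2 of every group lay in slide columns 1 and 2. Between 25002 and 27467 spots per array were well above background and no spot was saturated (0 spots). Replicates differed with an SD of 0.29 (untreated), 0.34 (LPS) and 0.40 (LPS+USP7i) on the log2 scale. All 8 macrophage markers examined were above background on all 6 arrays, and the log2 of their summed signal was 19.46 to 19.51 in untreated and LPS cells and 19.16 to 19.26 in LPS+USP7i cells. The 4 neutrophil markers were also above background on all arrays (12.02 to 12.11 untreated, 11.92 to 12.01 after LPS, and 12.14 after LPS+USP7i, the order kept below), as were 2 of 4 T cell markers, while *Cd3g* and *Cd8a* were above background on none. Of the other lists, 1 of 4 B cell markers (log2 sum 6.10 to 7.89, 6.97 to 9.05 and 6.75 to 8.40), 1 of 4 dendritic cell markers (15.22 to 15.46, 14.60 to 14.63 and 15.08 to 15.65) and 0 of 4 stromal and endothelial markers (5.71 to 5.89, 6.16 to 6.29 and 5.94 to 6.06) were above background on all 6 arrays. Of the defining genes, *Flt3*, *Xcr1*, *Col1a1* and *Col3a1* were above background on none. The dendritic cell sum follows *Siglech*, whereas *Zbtb46*, not above background in untreated cells, was at least 5.65-fold higher with LPS (adjusted p = 0.00435) and at least 4.41-fold higher with LPS+USP7i (adjusted p = 0.00806). The B cell gene *Pax5*, above background only with LPS+USP7i, was at least 1.39-fold higher there than with LPS (adjusted p = 0.0244). The macrophage sum weighs bright genes most, and 3 of its 8 genes passed in at least 1 comparison. *Cd14* differed by 1.69 with LPS and by −1.31 between LPS+USP7i and LPS (adjusted p = 0.00518 and 0.0184). *Fcgr1* differed by −1.60 between LPS+USP7i and LPS and by −1.26 between LPS+USP7i and untreated cells (adjusted p = 0.0317 and 0.0374). *Itgam* differed by −0.66 with LPS (adjusted p = 0.0233). The part of these marker differences in the results was not tested, and in such bulk samples fewer cells of a type and less RNA per cell cannot be told apart.

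Most of the family was expressed. Of the 52 genes, each read by its brightest probe, 37 were well above background on all 6 arrays and 43 on both arrays of at least 1 group. The brightest probes of 8 genes never exceeded the background threshold, namely those of *Usp13*, *Usp17l5*, *Usp27x*, *Usp43*, *Usp44*, *Usp49*, *Usp51* and *Usp9y*. A second *Usp27x* probe was above background on 1 untreated array and on no other. *Usp9y* lies on the Y chromosome and the mice were female, and its values were 2.32 to 2.43 on the log2 signal scale. Other undetected probes read higher, such as that of *Usp27x* at 4.06 and 4.18 with LPS+USP7i. The dimmest signal counted as above background ranged from 3.87 to 4.53 over the 6 arrays.

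**Figure D1:**
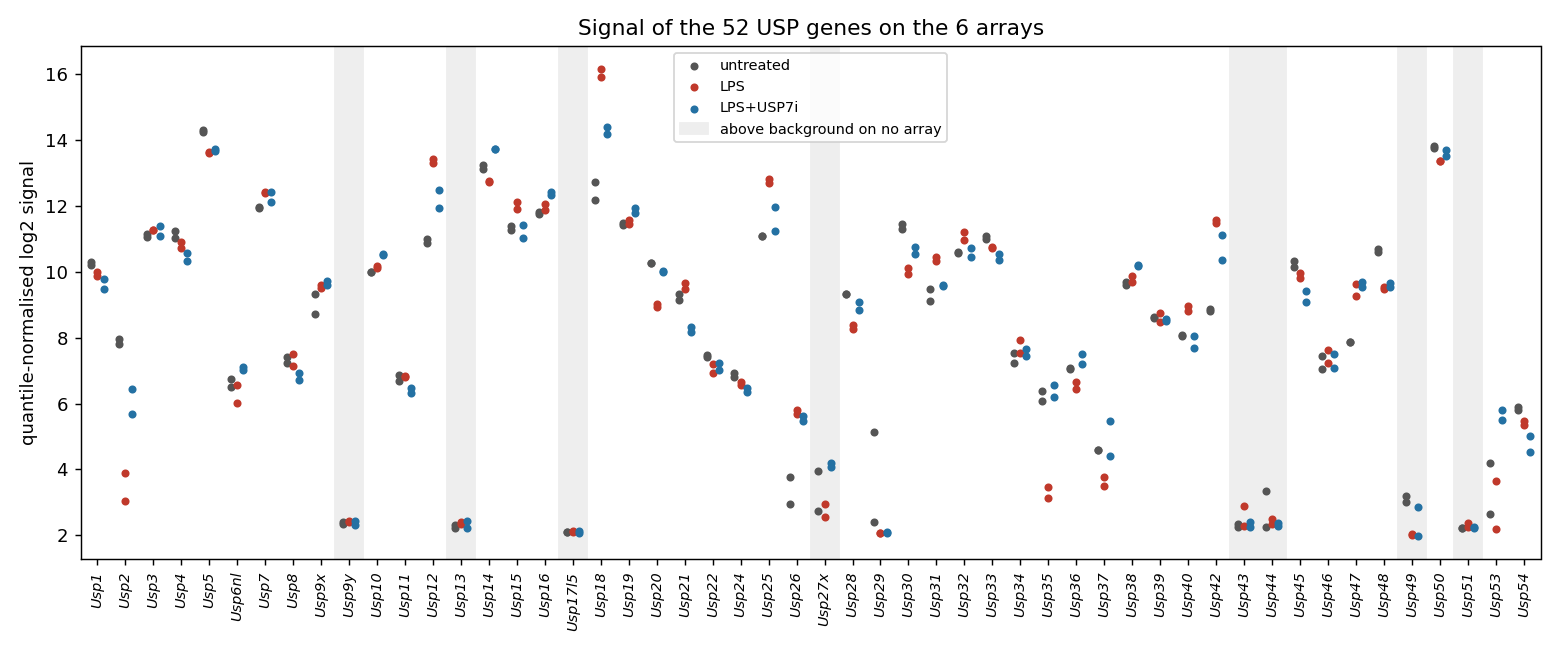
Quantile-normalised log2 signal (y axis) of the 52 USP genes (x axis, in order of their number), with 1 point per array and 2 arrays per group. Shading marks the 8 genes whose plotted probe, the brightest of the gene, was above background on no array, and the points of most other genes lie close together while those of *Usp18*, *Usp42*, *Usp12* and *Usp2* separate by group. Signals of different probes are not comparable with each other.

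*Usp7* encodes the target of the inhibitor. Its brighter probe (mm9, chr16:8689715-8689774) read 11.95 and 11.98 untreated, 12.41 and 12.40 after LPS, and 12.11 and 12.43 after LPS+USP7i on the log2 signal scale. Both LPS arrays were above both untreated arrays, and the LPS+USP7i arrays lay on either side of LPS replicate 1. The LPS difference of 0.44 (95% interval −0.09 to 0.97) did not pass the threshold of an adjusted p of 0.05 (limma, adjusted p = 0.104). It passed in 5 of 16 alternatives, and over all of them the difference ranged from 0.17, as a mean over both probes, to 0.80 with 75th percentile scaling (adjusted p from 0.0211 to 0.302). With the inhibitor *Usp7* differed from LPS by −0.14 (interval −0.67 to 0.39, adjusted p = 0.627) and from untreated cells by 0.30 (interval −0.23 to 0.83, adjusted p = 0.258). The sign against LPS rested on 1 array, since without LPS+USP7i replicate 1 the difference was 0.03. A dimmer *Usp7* probe in the same gene differed by −0.11, 0.14 and 0.03 in the same order. These arrays measure the transcript, not the activity of the enzyme.

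*Usp18* encodes the protease that removes ISG15 from proteins and that, with STAT2, restrains signalling from the interferon receptor. Its signal (mm9, chr6:121220874-121220933) was 12.72 and 12.18 untreated, 16.15 and 15.91 after LPS, and 14.17 and 14.40 after LPS+USP7i. No 2 groups overlapped, and the inhibitor-treated arrays stood between the other groups. *Usp18* rose by 3.58 with LPS (SE 0.23, adjusted p = 0.00438) and had the largest increase of the members detected in both groups. In LPS+USP7i it was lower than with LPS by 1.75 (SE 0.23, adjusted p = 0.0298), a 3.36-fold difference, and still 1.83 above untreated cells (adjusted p = 0.0188). The difference between LPS+USP7i and LPS passed in 8 of 16 alternatives (−1.91 to −1.63, adjusted p from 0.00172 to 0.119) and did not pass with the replicate number as a block (adjusted p = 0.0548).

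The other genes of the ISG15 pathway were read beside *Usp18*. *Isg15* itself, the ubiquitin-like modifier, measured 14.79 and 14.10 untreated, 18.35 and 18.13 after LPS, and 17.53 and 17.73 after LPS+USP7i. It rose by 3.80 with LPS (adjusted p = 0.00502), and its difference of −0.61 between LPS+USP7i and LPS did not pass (adjusted p = 0.308). *Herc6*, an ISG15 ligase, rose by 4.75 with LPS (adjusted p = 0.00343) and was lower by 1.44 with the inhibitor (adjusted p = 0.0481). *Uba7*, the ISG15-activating enzyme, was lower with the inhibitor by 1.18 (adjusted p = 0.0292), and its difference with LPS was 0.67 (adjusted p = 0.0594). The *Herc6* and *Uba7* differences between LPS+USP7i and LPS each passed in 9 of 16 alternatives (−1.75 to −1.12 and −1.42 to −1.14). Of the 5 genes listed for ISG15 and its conjugation, 3 were higher with LPS, and from LPS to LPS+USP7i 1 was higher and 2 were lower. The 1 that was higher was *Trim25*, by 0.55 (adjusted p = 0.0217), and its LPS difference of −0.24 did not pass (adjusted p = 0.0728). All 5 were detected, and among all detected genes the shares were 13.8% higher with LPS, and 9.73% higher and 7.27% lower with the inhibitor.

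**Figure D2:**
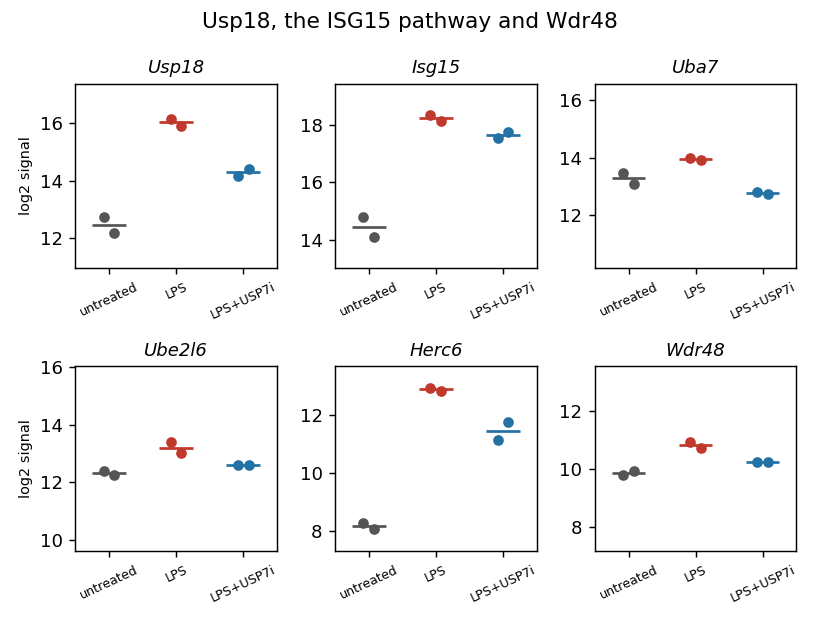
Log2 signal (y axis, each panel spanning the same number of log2 units) of *Usp18*, *Isg15*, *Uba7*, *Ube2l6*, *Herc6* and *Wdr48* in the 3 groups, with 1 point per array and a line at the mean of 2 arrays. *Usp18* and *Herc6* rise with LPS and lie lower with LPS+USP7i, and the points of *Usp18*, *Herc6* and *Isg15* with LPS+USP7i all lie above those of untreated cells. *Trim25*, also listed for ISG15 and its conjugation and higher with LPS+USP7i than with LPS, is not plotted.

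With LPS, 8 USP genes were higher, 9 were lower and 35 did not pass. These were 15.4% and 17.3% of the members, beside 7.98% and 12.8% of all genes tested. Among genes detected on both arrays of a group the shares were 18.6% higher and 20.9% lower for the 43 members detected, beside 13.8% and 23% for all such genes. The median difference was 0.00 over the detected members and −0.19 over all detected genes, and it was 0.01 over all members and 0.00 over all genes. The higher genes were *Usp18*, *Usp42*, *Usp12*, *Usp26*, *Usp25*, *Usp47*, *Usp31* and *Usp40*. The lower genes were *Usp2*, *Usp35*, *Usp30*, *Usp20*, *Usp48*, *Usp28*, *Usp5*, *Usp50* and *Usp14*. Leaving out single arrays changed these counts to 4 and 6 (without untreated replicate 1), 4 and 4 (untreated replicate 2), 3 and 6 (LPS replicate 1), 3 and 7 (LPS replicate 2), and 9 and 10 without either LPS+USP7i array. With 75th percentile scaling in place of quantile normalisation, under which the median of all genes shifted to 0.40, 18 members were higher (34.6%) and 7 lower (13.5%), beside 34.9% and 11.6% of all genes under that scaling.

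Between LPS+USP7i and LPS, 7 USP genes were higher, 4 were lower and 41 did not pass. The shares of 13.5% and 7.69% stood beside 5.52% and 4.27% of all genes. Among detected genes they were 16.3% and 9.30% for the members, beside 9.73% and 7.27%. The higher genes were *Usp35*, *Usp2*, *Usp20*, *Usp14*, *Usp36*, *Usp28* and *Usp10*, and the lower ones *Usp18*, *Usp21*, *Usp40* and *Usp31*. This comparison uses the same LPS arrays as the one before it, so chance deviations of those arrays enter both with opposite sign. The calls also depend on the spread being estimated over all 3 groups. In a limma fit of the LPS and LPS+USP7i arrays alone, and in fits without untreated replicate 1 or 2, 0 members were higher and 0 lower after adjustment, with 14 higher and 9 lower at an unadjusted p under 0.05 in each of these fits. Without LPS replicate 1 or 2, 3 were higher and 0 lower (11 and 6 lower at an unadjusted p under 0.05), without LPS+USP7i replicate 1 they were 4 and 1, and without replicate 2 they were 3 and 6. With the replicate number as a block, 4 were higher and 1 lower, of which *Usp14*, *Usp20*, *Usp35* and *Usp21* were among the 11 called without it, and *Usp30* was called in addition, while *Usp18*, *Usp2*, *Usp28*, *Usp31*, *Usp36*, *Usp40* and *Usp10* no longer passed.

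Against untreated cells, LPS+USP7i cells had 9 USP genes higher, 7 lower and 36 that did not pass. The shares were 17.3% and 13.5%, beside 6.16% and 8.71% of all genes, and 20.9% and 16.3% of detected members, beside 10.8% and 15.5% of all detected genes. The higher genes were *Usp26*, *Usp42*, *Usp18*, *Usp47*, *Usp12*, *Usp16*, *Usp14*, *Usp38* and *Usp10*, and the lower ones *Usp54*, *Usp48*, *Usp45*, *Usp21*, *Usp30*, *Usp33* and *Usp5*. With 75th percentile scaling, 15 members were higher (28.8%) and 8 lower (15.4%), beside 35% and 9.64% of all genes. Under that scaling the median of all genes shifted to 0.44. The counts were 2 and 2 without untreated replicate 1, 1 and 0 without untreated replicate 2 (13 lower at an unadjusted p under 0.05), 4 and 3 without either LPS array, 6 and 4 without LPS+USP7i replicate 1, and 4 and 6 without its replicate 2.

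**Figure D3:**
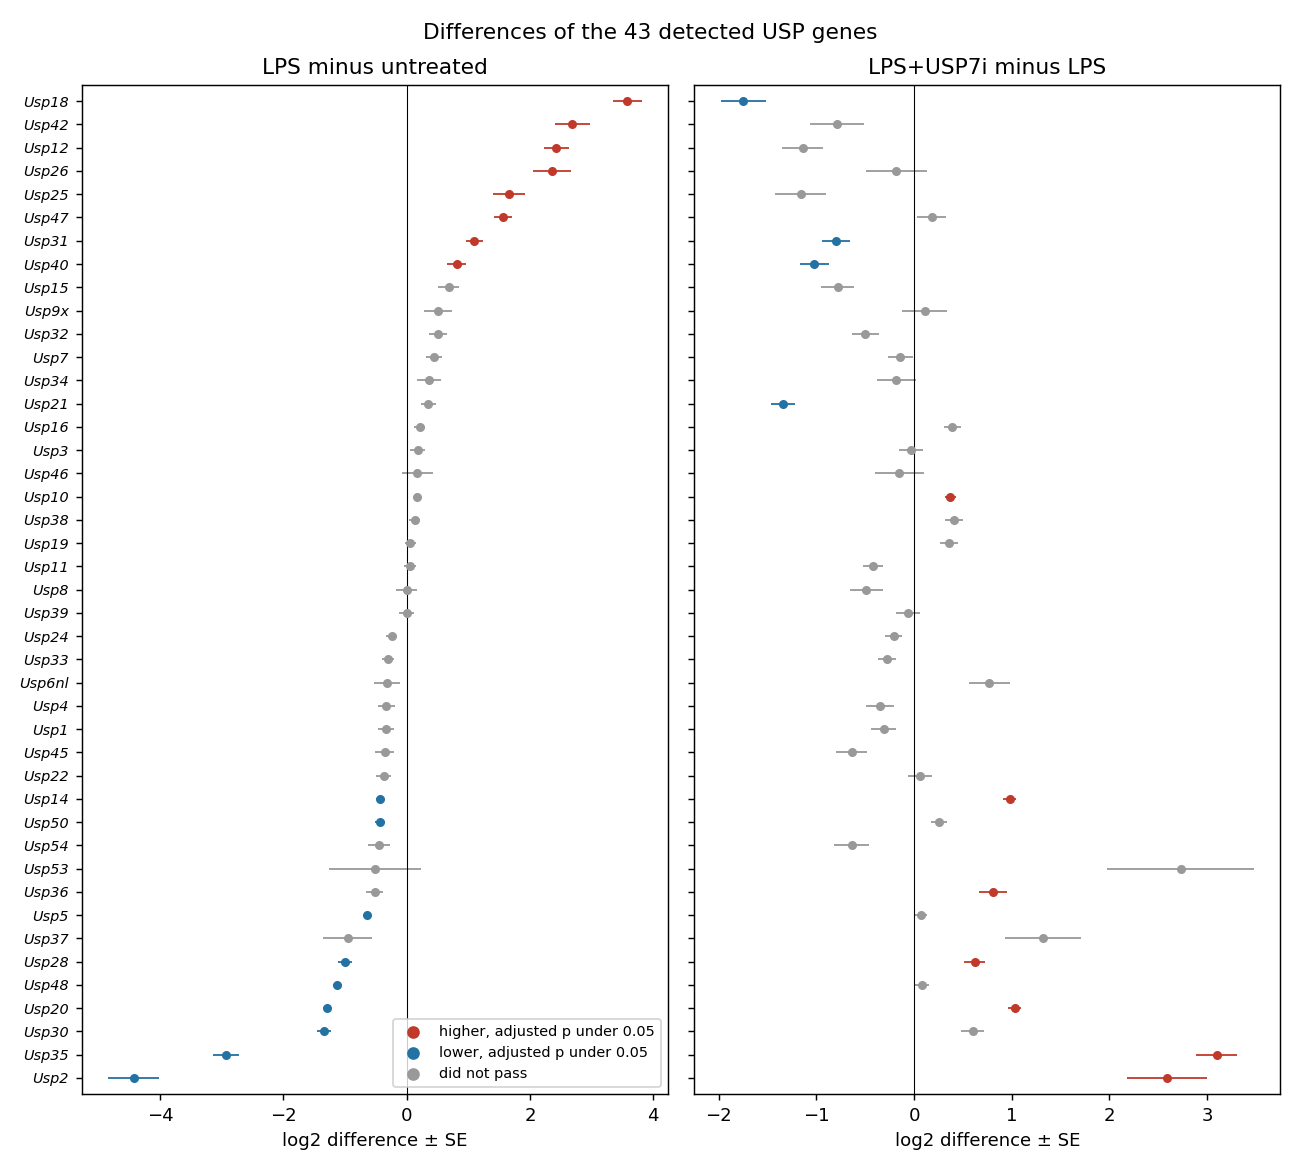
Log2 difference (x axis, bars are the SE from limma over 6 arrays) of the 43 USP genes detected on both arrays of at least 1 group, for LPS minus untreated (left) and LPS+USP7i minus LPS (right). Red and blue points passed an adjusted p of 0.05 as higher and lower. The panels share the LPS arrays, and the differences of *Usp2*, *Usp35*, *Usp26*, *Usp37*, *Usp53* and *Usp54* can involve a group below background.

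The starts of members, called or not, were compared as sequence. RefSeq promoters (GRCm38.p6) were at hand for 39 of the 52 members, and *Usp18* and *Usp42* had no entry. The stretches shown are the 250 bases upstream of the start of *Usp7*, the inhibitor's target, of *Usp12*, *Usp2* and *Usp35*, which had large changes with LPS, and of *Usp26*, which differs from them in base composition. Capitals mark the GC box GGGCGG, read on either strand so that CCGCCC also counts, in the first 4, and the AP-1 letters TGACTCA (or TGAGTCA on the other strand) in *Usp26*.
Usp7, chr16:8738343-8738592, minus strand: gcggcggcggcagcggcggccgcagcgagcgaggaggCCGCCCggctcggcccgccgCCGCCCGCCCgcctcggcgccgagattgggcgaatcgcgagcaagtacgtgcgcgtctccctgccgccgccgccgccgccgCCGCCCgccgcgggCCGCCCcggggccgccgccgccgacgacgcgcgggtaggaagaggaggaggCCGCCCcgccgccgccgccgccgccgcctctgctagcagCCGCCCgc
Usp12, chr5:146794957-146795206, minus strand: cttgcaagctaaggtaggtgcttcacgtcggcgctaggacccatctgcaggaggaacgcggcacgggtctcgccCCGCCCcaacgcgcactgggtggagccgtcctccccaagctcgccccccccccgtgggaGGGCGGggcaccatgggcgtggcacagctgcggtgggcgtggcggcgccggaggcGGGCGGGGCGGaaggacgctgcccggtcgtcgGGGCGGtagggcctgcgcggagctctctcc
Usp2, chr9:44084670-44084919, plus strand: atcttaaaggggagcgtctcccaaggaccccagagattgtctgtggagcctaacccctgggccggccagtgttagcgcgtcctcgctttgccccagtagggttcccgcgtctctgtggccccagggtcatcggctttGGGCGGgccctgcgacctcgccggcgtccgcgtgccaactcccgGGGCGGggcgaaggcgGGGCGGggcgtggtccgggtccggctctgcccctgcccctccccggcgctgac
Usp35, chr7:97332110-97332359, minus strand: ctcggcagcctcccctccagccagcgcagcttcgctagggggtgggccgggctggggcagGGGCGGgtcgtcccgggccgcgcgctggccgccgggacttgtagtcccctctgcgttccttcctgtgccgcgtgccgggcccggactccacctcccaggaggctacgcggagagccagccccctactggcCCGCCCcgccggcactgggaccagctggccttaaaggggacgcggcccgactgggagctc
Usp26, chrX:51801234-51801483, minus strand: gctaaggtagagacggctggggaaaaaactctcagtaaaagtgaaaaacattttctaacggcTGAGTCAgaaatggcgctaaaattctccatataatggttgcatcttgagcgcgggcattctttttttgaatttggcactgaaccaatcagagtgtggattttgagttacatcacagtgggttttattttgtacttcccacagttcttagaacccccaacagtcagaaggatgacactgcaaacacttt

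The *Usp7* stretch held 7 GC boxes, some overlapping, and 85.2% G or C, and those of *Usp12*, *Usp2* and *Usp35* held 5, 3 and 2 GC boxes and 74.8%, 71.6% and 75.6% G or C. *Usp26* held 0 GC boxes and 41.2% G or C, beside a median of 52.4% over all promoters of the table. For every motif, members were counted once per gene and the background once per promoter, so the shares differ in unit. A GC box was present in 26 of the 39 member genes (66.7%) and in 32.7% of all 32851 promoters. Genes that rose and genes that fell with LPS were thus both found with GC boxes, as was *Usp7*, which passed in no comparison. Among genes called with LPS, *Usp25*, *Usp30*, *Usp40* and *Usp48* held none. The core letters of the interferon-stimulated response element, spelled GAAA, any 2 bases and GAAA, were found in 1 member (*Usp49*, 2.56% of the 39) and in 2.98% of all promoters, the gamma-activated site TTCNNNGAA in 3 (*Usp26*, *Usp27x* and *Usp50*, 7.69%) and in 7.02%, and 1 form of the κB site, spelled GGGA, any base and TTTCC, in 0 members and in 0.356%. The AP-1 letters were found in 2 members (*Usp26* and *Usp38*, 5.13%) and in 4.46% of all promoters. The GC box and the AP-1 letters were chosen after the sequences had been seen, and a match of letters is not a measured binding site.

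Of the 9 members grouped under innate immune signalling, all were detected, 3 were higher and 2 lower with LPS, 2 rose and 3 fell from LPS to LPS+USP7i, and 2 were higher and 1 lower in LPS+USP7i than in untreated cells. In groups of so few genes such counts are descriptions, to be read against the shares of detected genes called, which were 13.8% higher and 23% lower with LPS, 9.73% and 7.27% between LPS+USP7i and LPS, and 10.8% and 15.5% between LPS+USP7i and untreated cells. *Usp25*, which acts on TRAF proteins downstream of immune receptors, read 11.10 and 11.10 untreated, 12.71 and 12.81 after LPS, and 11.25 and 11.96 after LPS+USP7i. Both LPS arrays lay above all others, and the inhibitor arrays were spread. Its rise of 1.66 with LPS passed (adjusted p = 0.0235), and its difference of −1.16 with the inhibitor did not (adjusted p = 0.0819), while a second *Usp25* probe, rising by 1.74, did pass as lower by 0.76 (adjusted p = 0.038).

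*Usp31*, described as an inhibitor of NF-κB signalling, was 9.12 and 9.47 untreated, 10.34 and 10.45 after LPS, and 9.61 and 9.58 after LPS+USP7i. Its rise of 1.10 (adjusted p = 0.0143) appeared on all 3 of its probes, with differences of 1.05 to 1.33 that each passed. Against LPS it was lower by 0.80 with the inhibitor (adjusted p = 0.0499), as was 1 of its other probes, while the third differed by −0.37 (adjusted p = 0.457).

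*Usp2*, a protease whose transcript follows the circadian clock and which acts on cyclin D1, was not well above background after LPS. Its signal was 7.97 and 7.81 untreated, 3.03 and 3.89 after LPS, and 6.43 and 5.68 after LPS+USP7i. Neither LPS array was well above background, whereas all other arrays were. LPS-treated cells were therefore at least 10.6-fold lower than untreated cells (adjusted p = 0.00773), and LPS+USP7i cells at least 2.97-fold higher than LPS cells (adjusted p = 0.0421), where a bound sets the bright group against the dimmest signal counted as above background on the LPS arrays, or the probe's own signal if higher. Against untreated cells the LPS+USP7i value differed by −1.84 (adjusted p = 0.0689). With normexp background correction, which adds an offset of 50 to every signal and so compresses dim ones, the differences against untreated and with the inhibitor were −2.05 and 0.82.

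*Usp20*, which interacts with the VHL protein and has been tied to antiviral signalling, was printed in 10 spots. The averages were 10.27 and 10.28 untreated, 8.92 and 9.03 after LPS, and 10.02 and 10.00 after LPS+USP7i. Replicates differed far less than groups. It fell by 1.30 with LPS (SE 0.065, adjusted p = 0.00336), was higher by 1.03 with the inhibitor than with LPS (adjusted p = 0.0124), and differed from untreated cells by −0.27 there (adjusted p = 0.0839). A second *Usp20* probe had signals of 2.11 to 2.73 and was above background on no array. It differed by −0.55 with LPS (adjusted p = 0.0127), 0.01 between LPS+USP7i and LPS, and −0.55 against untreated cells (adjusted p = 0.0175).

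*Usp21*, a nuclear enzyme for histone H2A that also acts on RIG-I, had another pattern. It read 9.31 and 9.14 untreated, 9.48 and 9.67 after LPS, and 8.32 and 8.16 after LPS+USP7i, so that no groups overlapped and the inhibitor-treated arrays were lowest. Its LPS difference of 0.35 did not pass (adjusted p = 0.152), but it was lower with the inhibitor by 1.34 against LPS (adjusted p = 0.0172) and by 0.99 against untreated cells (adjusted p = 0.0177). *Usp38* was 0.53 above untreated cells in LPS+USP7i (adjusted p = 0.0352). *Usp15* and *Usp4*, close relatives of each other, passed in no comparison.

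**Figure D4:**
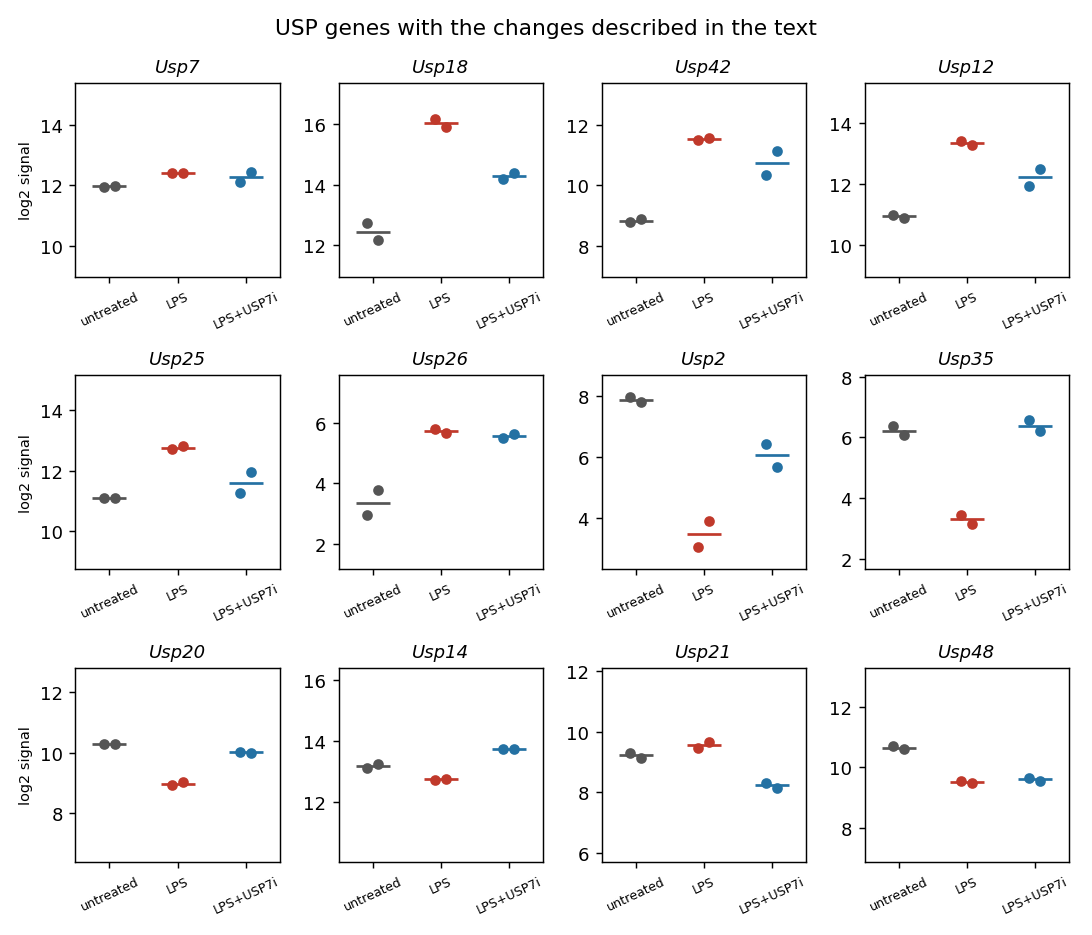
Log2 signal (y axis, each panel spanning about the same number of log2 units) of 12 USP genes in the 3 groups, with 1 point per array and a line at the mean of 2 arrays. *Usp18*, *Usp42* and *Usp12* are highest with LPS, *Usp2*, *Usp35* and *Usp20* are lowest with LPS, *Usp21* is lowest with LPS+USP7i, and *Usp48* is low in both LPS groups.

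Among the 5 members that act on NF-κB or p53, *Usp7* included, 1 was higher with LPS and the other 4 did not pass. That gene was *Usp42*, which acts on p53, with 8.80 and 8.87 untreated, 11.49 and 11.57 after LPS, and 10.35 and 11.13 after LPS+USP7i. The untreated arrays were below all others, and the inhibitor arrays were lower than both LPS arrays but far from each other. It rose by 2.69 with LPS (SE 0.28, adjusted p = 0.00975), a 6.47-fold increase, and by 1.90 with LPS+USP7i (adjusted p = 0.0269). The difference of −0.79 between LPS+USP7i and LPS did not pass (adjusted p = 0.212).

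*Usp10*, another p53 deubiquitinase, which binds the stress granule protein G3BP1, was 9.98 and 10.00 untreated, 10.17 and 10.12 after LPS, and 10.53 and 10.51 after LPS+USP7i. The groups did not overlap, with the inhibitor arrays highest. It was higher with the inhibitor by 0.37 against LPS (adjusted p = 0.0395) and by 0.53 against untreated cells (adjusted p = 0.0144), and its LPS difference was 0.16 (adjusted p = 0.175).

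All 6 members grouped under DNA damage or as partners of UAF1 were detected, and with LPS 2 were higher and 2 lower. *Usp12*, which needs the WD40 protein UAF1 for full activity, had signals of 10.99 and 10.87 untreated, 13.42 and 13.30 after LPS, and 11.95 and 12.49 after LPS+USP7i. No groups overlapped. The rise of 2.43 with LPS (SE 0.21, adjusted p = 0.00669) was 5.41-fold, and LPS+USP7i cells were 1.30 above untreated cells (adjusted p = 0.0322). Its difference of −1.14 against LPS did not pass (adjusted p = 0.0555). *Wdr48*, which encodes UAF1, was higher with LPS by 0.98 (adjusted p = 0.00836) and lower by 0.59 in LPS+USP7i than in LPS (adjusted p = 0.0422). *Usp1* and *Usp46*, the other UAF1-bound USPs, passed in no comparison.

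*Usp47*, an enzyme of base excision repair and the closest relative of *Usp7*, was raised in both LPS groups. It read 7.87 and 7.88 untreated, 9.62 and 9.25 after LPS, and 9.54 and 9.69 after LPS+USP7i. The groups given LPS overlapped each other and lay above the untreated cells. The increases were 1.56 (adjusted p = 0.00824) and 1.74 (adjusted p = 0.0101) against untreated cells, and LPS+USP7i differed from LPS by 0.18 (adjusted p = 0.596).

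*Usp48*, a histone H2A deubiquitinase, fell by nearly the same amount in both. It was 10.69 and 10.61 untreated, 9.55 and 9.48 after LPS, and 9.65 and 9.54 after LPS+USP7i. The falls were 1.13 (adjusted p = 0.00443) and 1.06 (adjusted p = 0.00732), and the difference between LPS+USP7i and LPS was 0.08 (adjusted p = 0.637). All 4 *Usp48* probes were lower with LPS, by 0.64 to 1.13, and all 4 were lower with LPS+USP7i than in untreated cells.

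*Usp28*, which acts in the DNA damage response and stabilises MYC, was 9.31 and 9.34 untreated, 8.27 and 8.38 after LPS, and 8.83 and 9.07 after LPS+USP7i. The groups were separate, with LPS lowest. It was 1.99-fold lower with LPS (adjusted p = 0.0103) and was higher by 0.62 with the inhibitor (adjusted p = 0.0499).

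Of the 3 members linked to the proteasome or to free ubiquitin chains, *Usp5* and *Usp14* were detected. *Usp14*, which sits on the proteasome and trims the ubiquitin of its substrates, had signals of 13.11 and 13.23 untreated, 12.72 and 12.75 after LPS, and 13.72 and 13.72 after LPS+USP7i. The LPS arrays were lowest and the inhibitor arrays highest. It fell by 0.43 with LPS (adjusted p = 0.0249), but differed by 0.03 in that comparison under 75th percentile scaling. It was higher with the inhibitor by 0.98 against LPS (SE 0.069, adjusted p = 0.0135) and by 0.55 against untreated cells (adjusted p = 0.0191). A dimmer *Usp14* probe, at 6.71 to 7.05, had differences of −0.11, 0.11 and 0.00.

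*Usp5*, which disassembles unanchored ubiquitin chains, was 14.24 and 14.30 untreated, 13.65 and 13.62 after LPS, and 13.74 and 13.67 after LPS+USP7i. Both groups given LPS were below the untreated cells. The falls were 0.64 (adjusted p = 0.00852) and 0.56 (adjusted p = 0.0149), and with 75th percentile scaling the differences were −0.07 and −0.24. Subunits of the proteasome lid that are themselves deubiquitinases or their partners were also on the list of other ubiquitin genes, where *Psmd14* was 0.55 higher with LPS (adjusted p = 0.0426) and *Psmd7* was 0.90 higher in LPS+USP7i than in LPS (adjusted p = 0.015).

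All 5 members placed at membranes, endosomes or mitochondria were detected. *Usp30*, which sits on the outer mitochondrial membrane and opposes Parkin, read 11.31 and 11.45 untreated, 9.94 and 10.12 after LPS, and 10.53 and 10.74 after LPS+USP7i. The groups were separate, with the inhibitor arrays between. It fell by 1.34 with LPS (adjusted p = 0.00743), was still 0.74 lower than untreated with the inhibitor (adjusted p = 0.0341), and its difference of 0.60 between LPS+USP7i and LPS did not pass (adjusted p = 0.0686). *Usp33*, a relative of *Usp20* that also interacts with VHL, was lower by 0.57 in LPS+USP7i than in untreated cells (adjusted p = 0.033). A second *Usp33* probe was at 7.77 on LPS replicate 2 and between 2.22 and 2.47 on the other 5 arrays, so a mean over both probes gave an LPS difference of 1.23 in place of −0.30. *Usp8*, *Usp19* and *Usp32* passed in no comparison.

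Of the 8 chromatin-related members, 4 were detected and with LPS 0 passed limma's adjusted threshold (0 higher and 3 lower at an unadjusted p under 0.05), while the brightest probes of the other 4 were above background on no array. *Usp36*, a nucleolar enzyme, had 7.08 and 7.04 untreated, 6.43 and 6.65 after LPS, and 7.49 and 7.21 after LPS+USP7i. The inhibitor arrays were the highest and the LPS arrays the lowest. It was higher with the inhibitor by 0.81 against LPS (adjusted p = 0.0469), whereas a second probe differed by 0.44 (adjusted p = 0.105) and fell with LPS by 0.83 (adjusted p = 0.0158). *Usp16*, which removes ubiquitin from histone H2A, was 11.74 and 11.81 untreated, 12.06 and 11.89 after LPS, and 12.34 and 12.41 after LPS+USP7i. The inhibitor arrays were highest, and the increase of 0.60 over untreated cells passed (adjusted p = 0.0259), as did that of 0.86 on its second probe.

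*Usp26*, an X-linked gene known from the testis, was detected only after stimulation. Its signal was 2.95 and 3.78 untreated, 5.79 and 5.67 after LPS, and 5.48 and 5.62 after LPS+USP7i. Neither untreated array was above background, and all 4 others were. It was at least 3.53-fold higher with LPS (adjusted p = 0.0156) and at least 3.12-fold higher with LPS+USP7i (adjusted p = 0.0242) than in untreated cells, on a probe that stayed dim throughout. With normexp correction these differences were 0.54 and 0.42 on the log2 scale. *Usp29*, an imprinted gene in the same group, was above background on untreated replicate 2 alone (5.14), with 2.41 on the other untreated array and 2.06 to 2.09 elsewhere.

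*Usp50*, which encodes a protein thought to lack protease activity, fell with LPS by 0.44 (adjusted p = 0.0359), but differed by 0.07 under 75th percentile scaling. The probe was bright, at 13.76 and 13.82 untreated, 13.35 and 13.36 after LPS, and 13.69 and 13.53 after LPS+USP7i. It lay at chr2:126534918-126534977 in mm9, whereas the second *Usp50* probe, with ends at 126603832 and 126605713 on the same chromosome, stayed at 2.20 to 2.27 and was not above background on any array. The *Usp8* probe lay between the 2 of them, at 126584484 to 126584543. The brighter values are therefore given as those of that probe.

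Among the remaining members, *Usp35* was detected in untreated and in LPS+USP7i cells. It read 6.38 and 6.07 untreated, 3.45 and 3.14 after LPS, and 6.57 and 6.21 after LPS+USP7i. The LPS arrays were not well above background, and the untreated and inhibitor arrays overlapped. *Usp35* was at least 3.35-fold lower with LPS than in untreated cells (adjusted p = 0.00502) and at least 3.75-fold higher with LPS+USP7i than with LPS (adjusted p = 0.013), while LPS+USP7i and untreated cells differed by 0.17 (interval −0.71 to 1.04, adjusted p = 0.743). Its second probe, also not well above background on both LPS arrays, was at least 2.31-fold lower with LPS and at least 2.56-fold higher with the inhibitor, both past the threshold. With normexp correction the differences of the brighter probe were −0.82 and 0.86.

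*Usp40* was 8.06 and 8.09 untreated, 8.97 and 8.80 after LPS, and 7.68 and 8.06 after LPS+USP7i. Both LPS arrays lay above the rest. It rose by 0.81 with LPS (adjusted p = 0.0382) and was lower by 1.02 with the inhibitor (adjusted p = 0.039). Its second probe differed by 0.46 with LPS (adjusted p = 0.0877) and was lower by 0.83 with the inhibitor (adjusted p = 0.0367). *Usp45*, which acts in the repair of DNA crosslinks, was lower in LPS+USP7i than in untreated cells by 0.99 (adjusted p = 0.0317), with 10.16 and 10.32 against 9.07 and 9.43. *Usp54*, predicted to be inactive, was at least 2.12-fold lower in LPS+USP7i than in untreated cells (adjusted p = 0.0367), since neither of its LPS+USP7i arrays was above background.

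*Usp53*, also predicted to lack protease activity, was above background only on the LPS+USP7i arrays, at 5.80 and 5.50 against 2.65 and 4.19 untreated and 2.19 and 3.64 with LPS. It did not pass against LPS (adjusted p = 0.128) or untreated cells (adjusted p = 0.172), and was chosen for mention after its values had been seen. *Usp24* likewise had 1 probe that fell by 0.53 with LPS (adjusted p = 0.0375) and was higher by 0.74 with the inhibitor (adjusted p = 0.0321), while its brighter probe differed by −0.24 and −0.21 and did not pass. In all, 25 members passed in at least 1 comparison and 27 in none, and 18 of these 27 were detected on both arrays of a group, among them *Usp9x*, the X-linked relative of *Usp9y*, *Usp39*, a splicing factor without protease activity, and *Usp6nl*. The share of all genes that passed in at least 1 comparison was not counted, so these counts cannot be set against a background.

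The other genes of the ubiquitin system were counted from a list of 75 symbols, of which 70 were found on the array. With LPS, 18 were higher and 13 lower (25.7% and 18.6%, beside 7.98% and 12.8% of all genes), with a median difference of −0.06. Of the 68 that were detected these were 26.5% and 19.1%, beside 13.8% and 23% of all detected genes. *Tnfaip3*, which encodes the ubiquitin-editing NF-κB inhibitor A20, rose by 4.89 (adjusted p = 0.00155), and *Herc6* and *Isg15* followed among the genes detected in both groups. *Rel*, an NF-κB subunit that was not above background in untreated cells, was at least 4.76-fold higher with LPS (adjusted p = 0.00267). Over the 16 alternatives the log2 difference of *Rel* ranged from 0.95 to 4.46, so the size of this rise depended on the processing. The largest decreases were those of the deubiquitinases *Mindy2* (by 1.89, adjusted p = 0.00565), *Josd1* (by 1.5, adjusted p = 0.00344) and *Mindy1* (by 1.45, adjusted p = 0.00689). *Cyld*, the deubiquitinase of K63-linked and linear chains that dampens NF-κB, fell by 0.99 (adjusted p = 0.0371). Over 16 alternatives its difference ranged from −1.16 to −0.23, the latter as a mean over its probes, and its adjusted p, from 0.00654 to 0.163, was under 0.05 in 11, and in none of the 4 without an untreated or LPS array. Without untreated replicate 1 or 2 the counts were 12 and 6 or 11 and 5, without either LPS array 11 and 8, and without either LPS+USP7i array 16 and 12.

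Between LPS+USP7i and LPS, 13 of the 70 were higher and 7 lower (18.6% and 10%, beside 5.52% and 4.27% of all genes). Of the detected genes these were 19.1% and 10.3%, beside 9.73% and 7.27%. With the replicate number as a block the counts were 13 higher and 3 lower. *Uba6*, *Herc6* and *Uba7*, all lower here, each passed in 9 of 16 alternatives. Of the 38 genes listed as other deubiquitinases or their relatives, a list that also holds the SUMO protease *Uspl1* and *Psmd7*, *Cops6*, *Eif3h* and *Pan2*, which are not ubiquitin proteases themselves, 10 were higher, *Uspl1* and *Psmd7* among them, and 0 lower after limma's adjustment (13 and 7 at an unadjusted p under 0.05). The 10 were 27.8% of the 36 detected genes of that list. Of the 21 partners of USP enzymes 0 were higher and 4 lower (4 and 9 unadjusted). *Otud7b*, a protease for K11-linked chains, was higher by 1.81 (adjusted p = 0.0166), *Mindy1* by 1.64 (adjusted p = 0.0149) and *Uspl1*, a SUMO protease, by 1.49 (adjusted p = 0.0107). The largest decreases among the genes that passed were those of *Uba6*, a ubiquitin-activating enzyme (by 1.45, adjusted p = 0.0322), *Herc6* and *Uba7*. These calls had the same dependence on the untreated arrays as those of the members, with 0 higher and 0 lower after limma's adjustment without untreated replicate 1 or 2, and 19 higher and 19 lower at an unadjusted p under 0.05. Without LPS+USP7i replicate 1 they were 3 and 0 (16 lower at an unadjusted p under 0.05), and without replicate 2 they were 11 and 4. Without LPS replicate 1 or 2 they were 4 and 1.

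Against untreated cells, 19 of the 70 were higher and 9 lower in LPS+USP7i (27.1% and 12.9%, beside 6.16% and 8.71% of all genes), or 27.9% and 13.2% of the detected genes, beside 10.8% and 15.5%. *Tnfaip3* was 4.50 higher (adjusted p = 0.00384), *Herc6* 3.32 (adjusted p = 0.008) and *Isg15* 3.19 (adjusted p = 0.00986). The largest decreases among the genes that passed were those of *Cyld* (by 1.71, adjusted p = 0.0147), of *Uhrf1*, a chromatin E3 ligase that is a partner of USP7 (by 1.53, adjusted p = 0.00437), and of *Mysm1*, a histone H2A deubiquitinase (by 1.05, adjusted p = 0.0416). The counts were 6 and 2 without untreated replicate 1, 5 and 1 without untreated replicate 2, 14 and 5 without either LPS array, and 15 and 3 or 14 and 7 without LPS+USP7i replicate 1 or 2.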

How the data were processed

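RNA from 6 cultures of BMDMs was hybridised to 1-colour Agilent arrays (mm9 annotation) and scanned with Feature Extraction 10.7.3.1 per the labels. The authors deposited spot intensities, background-corrected by the scanner software, and a table of log2 values normalised between arrays. Here log2 values of the processed signal were quantile-normalised over the 59305 spots that were not controls, outlier-flagged spots were dropped, spots of a probe were averaged, and limma 3.58.1 (R 4.3.3) was fitted to all 6 arrays (lmFit, eBayes; 3 residual and 1.05 prior degrees of freedom). The Benjamini-Hochberg method was applied over 55680 probes, at 0.05. The brightest probe stood for a gene. The code was tested on simulated data. Genes were named if they were *Usp7* or *Usp18* or among the 8 largest changes called in each direction, and the other calls and genes named were chosen after their values were seen. Of the ubiquitin list, *Isg15*, *Cyld*, *Tnfaip3* and the 3 largest changes each way were fixed, and others were chosen likewise. Members and lists were chosen with earlier results of these data known. p values measure the spread between 2 cultures per group, and the number of arrays limits the precision. Alternatives were 75th percentile scaling, normexp, the deposited log2 table, a trended prior, no dim probes, keeping flagged spots, fitting 2 groups only, a replicate block, leaving out each array, means over probes, and a log2 difference of at least 1. Amino acid sequences were not used here. One further marker list is not reported here.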

Additional observations from a re-analysis of the deposited data

How the results depend on the processing

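With 16 alternatives, 5 of the 17 members called with LPS passed in all of them (*Usp12*, *Usp18*, *Usp20*, *Usp35* and *Usp48*), and 0 of the 11 called between LPS+USP7i and LPS and 0 of the 16 called against untreated cells did. Calls that passed in under 8 alternatives were *Usp14* with LPS and *Usp10*, *Usp28*, *Usp31* and *Usp36* against LPS. Against untreated cells they were *Usp14*, *Usp33* and *Usp54*. Counts are given as higher and lower, and those not named moved by at most 1.5 times. With 75th percentile scaling, 18 members were higher with LPS, 4 were higher between LPS+USP7i and LPS, and 15 members and 29 ubiquitin genes were higher against untreated cells (of all genes 34.9%, 4.93% and 35% were higher under this scaling, beside 34.6%, 7.69% and 28.8% of the members). Under normexp, 11 and 9 members passed between LPS+USP7i and LPS (21.2% and 17.3%, beside 8.2% and 6.9% of all genes), with 16 ubiquitin genes lower (22.9%). The deposited table gave 6 members lower with LPS (11.5%, beside 8.86% of all genes) and 4 members higher against LPS (7.69%, beside 3.82%). Against untreated cells it gave 4 members higher (7.69%, beside 4.94%) and 5 ubiquitin genes lower (7.14%, beside 6.46%). Without dim probes, 8 members and 13 ubiquitin genes were lower against LPS, and 11 members were lower against untreated cells. For this setting and those after it, shares of all genes were not counted, so these counts cannot be set against a background. Means over probes gave 11 ubiquitin genes lower against LPS. Fits of only the 2 groups gave 0 and 0 for members and for ubiquitin genes against LPS (limma; 14 and 9, and 19 and 19, at an unadjusted p under 0.05), and 4 and 3 members and 5 ubiquitin genes lower against untreated cells. Requiring a log2 difference of at least 1 left 5 members lower with LPS, with 11 and 5 ubiquitin genes, 3 members higher against LPS, with 6 and 4 ubiquitin genes, and 5 and 2 members and 4 ubiquitin genes lower against untreated cells. Leaving out 1 array gave 3 to 9 and 4 to 10 members with LPS (ubiquitin genes 11 to 16 and 5 to 12), 0 to 4 and 0 to 6 against LPS (0 to 11 and 0 to 4), and 1 to 6 and 0 to 6 against untreated cells (5 to 15 and 1 to 7).

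Same-numbered arrays deviated together (r = 0.47, 0.40 and 0.42 between the groups' deviations), and the number goes with the slide column, while the labels name no shared culture or day. With a replicate block, 4 members were higher and 1 lower against LPS (3 and 1 of them also called without it), with 3 ubiquitin genes lower, and the other counts moved by less than 1.5 times.

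Directions turned as follows. Under 75th percentile scaling *Usp14* (0.03) and *Usp50* (0.07) turned with LPS, *Usp5* (−0.17) against LPS, and *Usp50* (0.13) against untreated cells. With means over probes *Usp33* (1.23) turned with LPS, *Usp7* (0.00) against LPS, and *Usp36* (−0.22) against untreated cells. Leaving out 1 array turned *Usp47* against LPS without LPS replicate 2 (range −0.01 to 0.36) and, without LPS+USP7i replicate 1, *Usp7* against LPS (range −0.30 to 0.03) and *Usp35* against untreated cells (range −0.01 to 0.35). The cause of these changes was not tested.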
